A study of Homo sapiens and Mus musculus with 28 samples.

Results

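The genes described here are the human clustered core histone genes (H2A, H2B, H3 and H4 families) and the linker histone H1 genes. They were taken as every gene whose current symbol begins with H1- and a number, or with H2AC, H2BC, H3C or H4C and a number, leaving out 17 pseudogenes and the antisense RNA H1-10-AS1. The rule gave 74 genes, of 60662 genes in the degron files, 60649 in the culture files and 62700 in the xenograft files. They comprised 10 H1, 17 H2A, 19 H2B, 13 H3 and 15 H4 genes, of which 55 lay in the large cluster on chromosome 6, 11 in the cluster at 1q21, 2 at 1q42 and 6 elsewhere.

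Core histones H2A, H2B, H3 and H4 form the octamer around which DNA is wound, and H1 binds the DNA that enters and leaves it. Most of these genes are replication-dependent: their mRNAs are made mainly in S phase, are not spliced, and end in a conserved stem-loop bound by SLBP instead of a poly(A) tail. Some can also be read into a polyadenylated transcript, which is known from differentiating and resting cells, while H1-10 is a polyadenylated gene transcribed outside S phase as well. All libraries were made from poly-A selected RNA, which favours polyadenylated histone transcripts over the stem-loop-ended pool. How much of that pool the libraries still hold was not tested.

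The study lowered GATA6, a GATA-family transcription factor needed for gut endoderm, in DLD-1, an established human colorectal adenocarcinoma line. Cells labelled GATA6-AID-IAA7, in which auxin triggers degradation of the tagged protein, gave 4 groups of 3 libraries: control cells at 0 h of auxin, cells after 12 h in 500 µM IAA, cells given 12 h of IAA and then washed for 24 h, and cells after 72 h in 500 µM IAA. Unfused DLD-1 cultures gave 3 libraries with a CRISPR knockout made with a GATA6 guide (KO) and 3 wild-type (WT) libraries. Flank tumours gave 5 KO and 5 control libraries, from cells injected into athymic nude mice 5 to 6 weeks old, 10 mice per condition. The labels speak of positive clones for the tagged line without saying how many gave the libraries, do not say whether the knockout cells are 1 clone, and do not tie tumours to animals, so p-values measure the spread between these libraries.

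Across the 28 libraries, depth ran from 14569850 to 36500654 counts. GATA6 mRNA stood at 25.2, 18.4 and 22.1 CPM (counts per library total, after TMM scaling) in KO cultures, against 57.3, 73.7 and 91.7 CPM in WT cultures. It was 28.98 to 42.9 CPM in KO xenografts and 66.5 to 80.2 CPM in control xenografts. In the degron cells, where the transcript does not report on the degraded protein, GATA6 mRNA was 31.4, 34.9 and 36.0 CPM at 72 h against 43.2, 49.8 and 46.9 CPM in control cells (log2 fold change −0.45 ± 0.07, adjusted p = 7.43e-06 by edgeR's quasi-likelihood test). At 12 h it was 42.4 to 48.1 CPM, overlapping control. In bulk RNA, fewer cells of a type and less RNA per cell cannot be told apart.

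Of the 74 genes, 7 had 0 counts in every library (H1-7, H1-8, H2AC1, H2BC1, H2BC10, H4C6 and H4C7) and 5 had 1 to 3 counts in all libraries together. The filter on low counts passed 29 in the degron set, 23 in cultures and 32 in xenografts, of which 22 passed in all 3 sets and 38 in none. The counts below are over the genes that passed in that comparison. The filter asks for enough reads in only as many libraries as the smallest group holds. A low gene can therefore pass through 1 group alone, and counts of risen genes can lean towards genes high in KO libraries.

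The stem-loop that normally ends these messages was searched for in the annotated transcripts (GENCODE v29, GRCh38), as the conserved 16-base histone stem-loop with its variable positions left free, on the transcript strand. It was found in 31 of the 72 genes with a v29 transcript, and in 0.188% of all 206534 annotated transcripts. In 23 of the 31, an annotated transcript ran more than 100 bases past the stem-loop. The 6 below are shown because they are among the genes given with values later and because their annotated transcripts continue beyond the site. Capitals mark the 16-base stem-loop, and each is given with 5 bases on either side.
H2AC6: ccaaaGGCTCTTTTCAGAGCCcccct
H2BC4: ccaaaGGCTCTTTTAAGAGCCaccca
H2BC21: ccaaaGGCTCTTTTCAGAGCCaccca
H3C6: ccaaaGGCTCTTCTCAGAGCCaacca
H3C10: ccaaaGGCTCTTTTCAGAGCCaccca
H4C14: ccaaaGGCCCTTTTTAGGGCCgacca
The annotated transcript continued for at most 1128 bases after this site in H2AC6, 116 in H2BC4, 1729 in H2BC21, 1862 in H3C6, 769 in H3C10 and 1167 in H4C14. H2AC6, H2BC21 and H3C10 carry the same 16 letters, the form found in 17 genes. H1-2, H2BC12 and H4C3 are annotated only as single-exon models of 642, 381 and 435 bases, and no match was found within them. Short models can end before the site, so a missing match does not show that a gene lacks the stem-loop. A match describes the letters in the annotation and not the end of the transcripts measured.

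Summed over the 70 replication-dependent genes, histone transcripts were higher in KO cells in both settings and lay close together across the degron groups. The sum was 526, 508 and 526 TPM (transcript abundance on a per-length scale) in KO cultures, against 176, 212 and 195 TPM in WT cultures, a ratio of means of 2.67. In KO xenografts it was 1600, 1944, 1584, 1918 and 1635 TPM, against 416, 372, 395, 390 and 421 TPM in control xenografts, a ratio of 4.35. In both pairs every KO library lay above every WT or control library. In the degron cells the sum averaged 228 ± 20 TPM in control cells, 217 ± 7 TPM at 12 h, 203 ± 10 TPM after washout and 216 ± 11 TPM at 72 h (SD, n = 3 each), and the 72 h and control libraries overlapped.

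**Figure D1:**
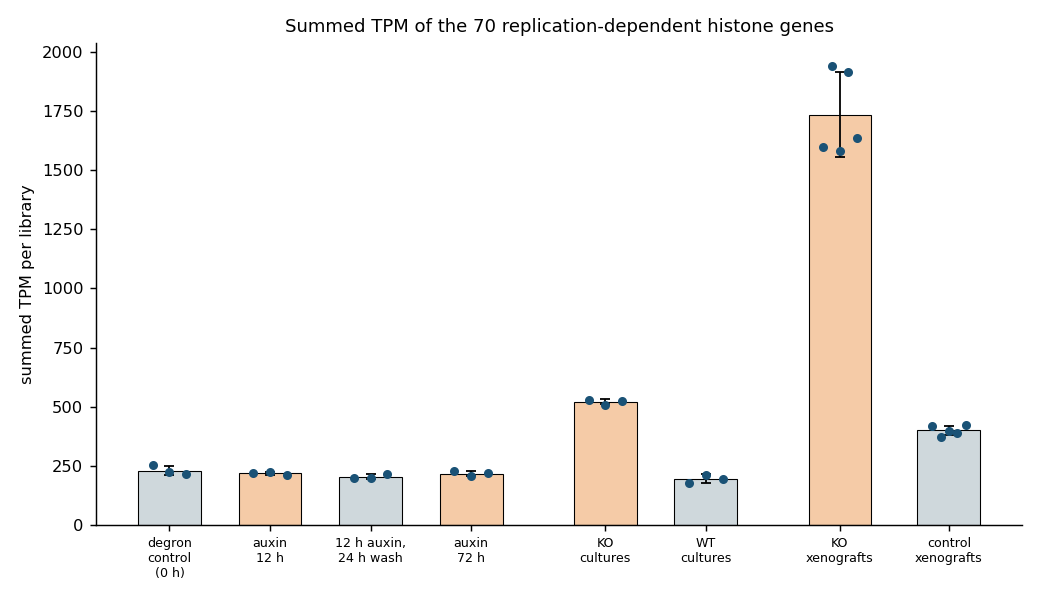
Summed TPM (y axis, linear from 0) of the 70 replication-dependent genes in the 8 groups; each point is a library, bars are means and error bars the SD, with orange for groups with auxin present or GATA6 knocked out and grey for degron control, washout, WT and control groups. The 3 KO cultures sit between 508 and 526 TPM, above the 3 WT cultures at 176 to 212 TPM, and the 5 KO xenografts between 1584 and 1944 TPM, above the 5 control xenografts at 372 to 421 TPM.

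The size of the difference varied across families and, for H1, H3 and H4, with the scale. On the TPM scale, in KO cultures the H2B sum was 3.90 times and the H2A sum 3.47 times that in WT cultures, whereas the H3 sums were 6.52 ± 1.28 TPM in KO and 6.06 ± 1.94 TPM in WT cultures, with overlap. In CPM, which does not divide by length, the H3 sum was 4.96 ± 0.45 in KO cultures and 2.23 ± 0.70 in WT cultures, 2.22 times as high and without overlap. The H4 sum was lower in KO cultures, 37.4 ± 2.8 TPM against 69.6 ± 17.1 TPM in WT cultures, without overlap, and 0.757 times that in WT cultures in CPM. In KO xenografts all 5 family sums lay above the control xenografts without overlap: in TPM the ratio was 4.97 for both H2A and H2B, 2.42 for H1, 2.29 for H3 and 2.04 for H4. In CPM it was 5.18 for H2A, 5.93 for H2B, 1.83 for H1, 4.21 for H3 and 2.04 for H4, so the order of H1 and H3 depended on the scale. H1-2 alone made up 29.8 to 33.0% of the replication-dependent sum in KO cultures and 15.8 to 18.3% in WT cultures. Without H1-2 the ratio of sums was 2.19 in cultures and 4.18 in xenografts.

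The first comparison, KO against WT cultures, asked what stable loss of GATA6 does to these transcripts in dishes. Of the 23 histone genes tested, 15 rose and 2 fell (edgeR's quasi-likelihood test, Benjamini-Hochberg adjusted p under 0.05), while over all 13740 genes tested 30.4% rose and 28.7% fell. The median log2 fold change was 1.17 over the 23 genes and 0.02 over all genes tested. By family, 2 of 4 H1 genes, 3 of 7 H2A genes, 6 of 6 H2B genes, 2 of 2 H3 genes and 2 of 4 H4 genes rose, and 1 H1 and 1 H4 gene fell.

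Among linker histones in cultures, H1-2 changed most (GRCh38 chr6:26055787-26056428, minus strand, a single-exon protein-coding gene). H1-2, a replication-dependent H1 that most cell types express, had 52.5, 58.5 and 58.8 CPM in KO cultures against 12.8, 13.5 and 11.9 CPM in WT cultures. The KO libraries were all more than 50 CPM and the WT libraries all less than 14 CPM, a log2 fold change of 2.15 ± 0.07 (SE; adjusted p = 3.82e-12). H1-10, a replication-independent linker histone, had 62.4, 56.4 and 57.6 CPM in KO cultures and 51.5, 62.3 and 97.9 CPM in WT cultures and did not pass the test (adjusted p = 0.476, 95% interval of the log2 fold change −0.79 to 0.28). H1-4, which is named here after its values were seen, was the H1 gene that fell, with 0.332 to 0.419 CPM in KO cultures against 0.673 to 1.51 CPM in WT cultures (log2 fold change −1.46, adjusted p = 0.0076).

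In the H2A family, H2AC6 (chr6:26124145-26139116, plus strand, annotated with spliced transcripts) had 9.68, 11.9 and 10.6 CPM in KO cultures against 1.53, 1.60 and 1.96 CPM in WT cultures. Every KO library stood more than 4-fold above every WT library, with a log2 fold change of 2.67 ± 0.16 (adjusted p = 1.96e-09). H2AC19 had 12.49, 16.34 and 9.76 CPM in KO cultures against 1.94, 1.69 and 0.448 CPM in WT cultures (log2 fold change 3.19, adjusted p = 0.00155). H2AC18 and H2AC19 are near-identical copies at 1q21 between which reads can be split, so their sum is the firmer value: 16.5 ± 1.1 CPM in KO cultures and 3.71 ± 0.20 CPM in WT cultures (SD, n = 3 each).

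The H2B family moved as a block in cultures, with a median log2 fold change of 2.05 over its 6 tested genes. H2BC12 (chr6:27146418-27146798, minus strand) had 24.9, 22.4 and 24.7 CPM in KO cultures against 8.39, 6.58 and 6.62 CPM in WT cultures, a log2 fold change of 1.73 ± 0.11 (adjusted p = 2.45e-09). In the annotation, 74.4% of the 31-base stretches of H2BC12 also occur in H2BC12L, another of the 74 genes, which was given 3.04 counts over all libraries. Reads from the shared part can be assigned to either gene, so the values of H2BC12 carry that uncertainty in every comparison. H2BC5 had 10.0, 7.63 and 10.6 CPM in KO cultures against 2.21, 1.74 and 1.57 CPM in WT cultures (2.34 ± 0.19, adjusted p = 3.65e-08). H2BC21 (chr1:149884459-149886652, minus strand) had 5.11, 3.86 and 3.70 CPM in KO cultures against 0.542, 0.731 and 0.673 CPM in WT cultures (2.69 ± 0.25, adjusted p = 2.56e-07). None of H2BC12, H2BC5 and H2BC21 overlapped between KO and WT libraries, and the share of all genes without overlap was not counted. H2BC4 (chr6:26114873-26123926, minus strand) had 3.44, 2.51 and 3.78 CPM in KO cultures against 0.451, 0.731 and 0.673 CPM in WT cultures (2.38 ± 0.29). H2BC15, which overlaps H2AC15 on the opposite strand, had 2.81 to 3.16 CPM in KO cultures against 0.561 to 1.05 CPM in WT cultures (1.75 ± 0.27).

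The H3 and H4 genes were low in cultures and did not share a direction. H3C6 had 2.98, 2.58 and 2.28 CPM in KO cultures against 0.271, 0.365 and 0.392 CPM in WT cultures, a log2 fold change of 2.92 ± 0.32 (adjusted p = 1.19e-06). H4C14 had 1.76, 3.29 and 3.41 CPM in KO cultures against 1.35, 1.19 and 0.729 CPM in WT cultures (1.35 ± 0.31, adjusted p = 0.00143). H4C3 (chr6:26103876-26104310, plus strand) went the other way, with 1.59, 1.53 and 2.20 CPM in KO cultures against 4.47, 5.66 and 7.34 CPM in WT cultures (−1.71 ± 0.22, adjusted p = 8.29e-06). On the per-length scale H4C3 averaged 17.1 TPM in KO cultures and 48.7 TPM in WT cultures, and it thereby made up most of the difference in the H4 sum.

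**Figure D2:**
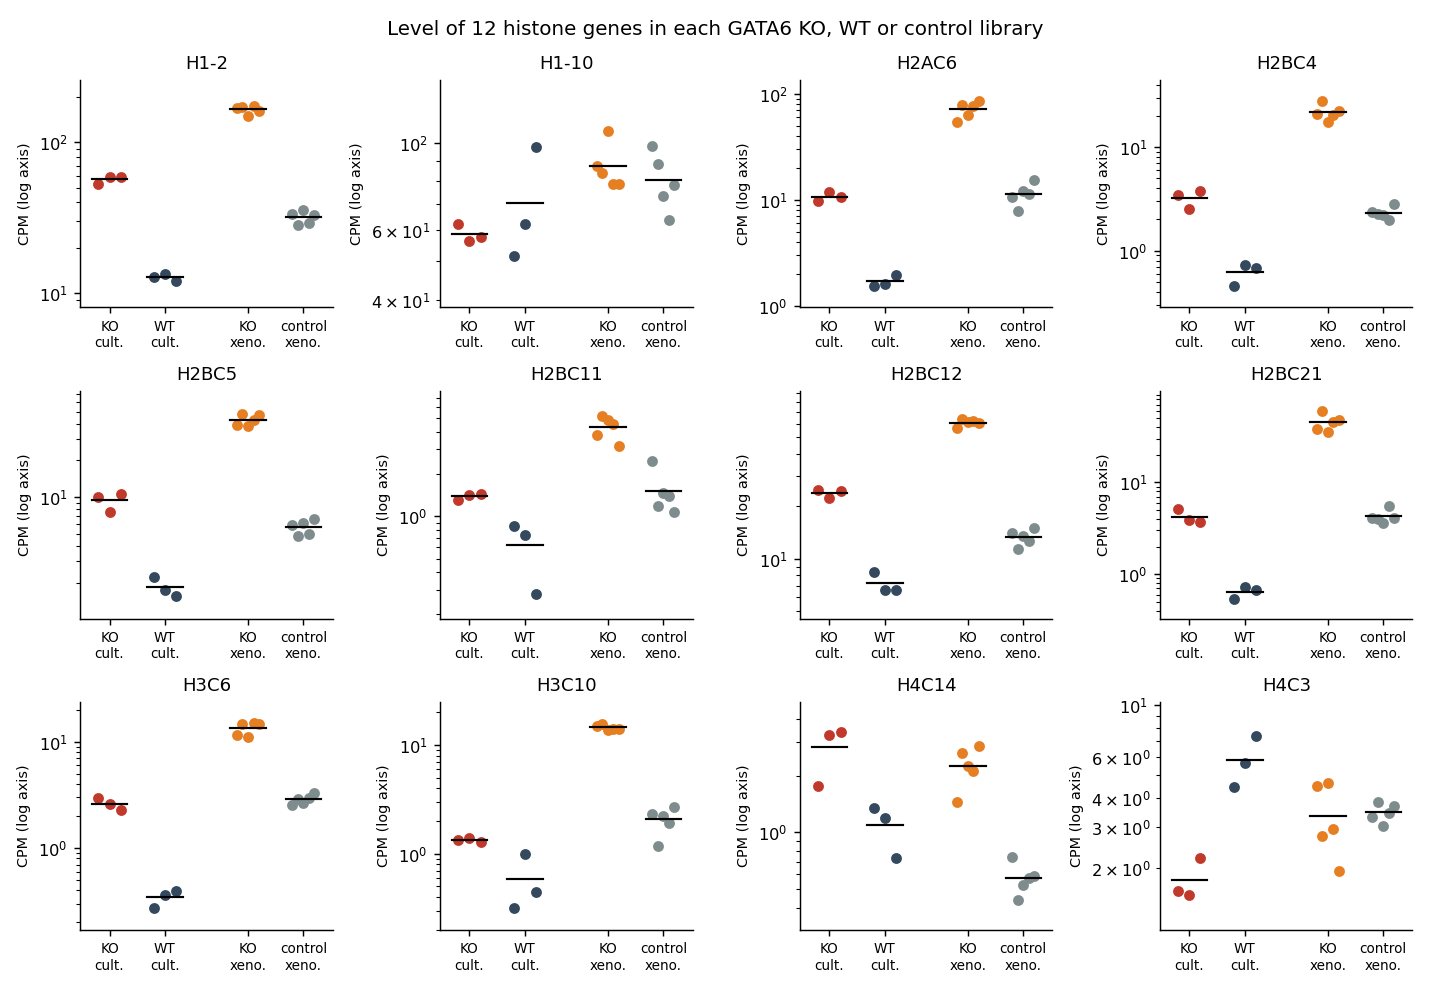
CPM (log axis) of 12 histone genes in each KO culture, WT culture, KO xenograft and control xenograft library; points are libraries and lines are group means. H1-2, for example, lies at 52.5 to 58.8 CPM in KO cultures above 11.9 to 13.5 CPM in WT cultures, while H4C3 is lower in KO than in WT cultures and H1-10 overlaps in both pairs.

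The xenograft comparison asked the same of tumours grown from the cells. Of 32 histone genes tested, 25 rose and 0 fell in KO xenografts, while 28% of all 14996 genes tested rose and 28.1% fell. At an unadjusted p under 0.05, 26 histone genes passed, and DESeq2 also called 25 higher and 0 lower. The median log2 fold change was 1.89 over the 32 genes and −0.01 over all genes tested. The risen genes were 2 of 5 H1, 7 of 9 H2A, 10 of 10 H2B, 2 of 2 H3 and 4 of 6 H4 genes tested. They included 8 of the 10 genes that passed the filter in xenografts and not in cultures.

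In tumours H1-2 again differed most among the linker histones, with 168, 171, 149, 174 and 162 CPM in KO xenografts against 33.3, 28.3, 35.8, 28.9 and 33.1 CPM in control xenografts. The lowest KO library stood about 4-fold above the highest control library (log2 fold change 2.37 ± 0.08, adjusted p = 4.83e-12). H1-10 had 78.6 to 108 CPM in KO xenografts and 63.8 to 98.7 CPM in control xenografts and did not pass the test (95% interval of the log2 fold change −0.11 to 0.34).

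H2AC6 had 54.5, 77.8, 63.0, 77.3 and 85.2 CPM in KO xenografts against 10.6, 7.80, 12.1, 11.2 and 15.2 CPM in control xenografts. Its libraries did not overlap and the log2 fold change, 2.66 ± 0.17 (adjusted p = 1.11e-07), was close in size to that in cultures. In xenografts the reads of the near-identical pair fell mostly to H2AC18, and H2AC19 was listed at 0 in 2 KO and 2 control libraries. The pair summed to 91.4 ± 15.0 CPM in KO xenografts and 15.0 ± 0.8 CPM in control xenografts (SD, n = 5 each).

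All 10 tested H2B genes rose in tumours, between 1.29 and 3.42 on the log2 scale. Low ones among them could pass the filter through their KO libraries alone. H2BC21 had 38.3, 60.2, 35.6, 45.5 and 48.2 CPM in KO xenografts against 4.14, 4.04, 3.604, 5.56 and 4.07 CPM in control xenografts, the largest rise of any histone gene tested there (3.42 ± 0.16, adjusted p = 8.54e-10). H2BC4 had 20.8, 28, 17.6, 20.6 and 22.4 CPM in KO xenografts against 2.36, 2.28, 2.19, 1.97 and 2.84 CPM in control xenografts (3.24 ± 0.14). For both genes the lowest KO library stood more than 6-fold above the highest control library. H2BC5 had 38.3 to 48.0 CPM in KO xenografts against 4.78 to 6.61 CPM in control xenografts (2.92 ± 0.11), and H2BC12 had 56.7 to 63.6 CPM in KO xenografts against 11.4 to 15.0 CPM in control xenografts (2.20 ± 0.08). H2BC11, the weakest H2B gene named, had 3.16 to 5.22 CPM in KO xenografts against 1.08 to 2.48 CPM in control xenografts (1.52 ± 0.23).

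H3C10, an H3 gene of the chromosome 6 cluster (chr6:27810064-27811300, plus strand), had 15.01, 15.75, 13.80, 13.996 and 14.11 CPM in KO xenografts against 2.32, 1.18, 2.23, 1.92 and 2.69 CPM in control xenografts. Its KO libraries lay within 2 CPM of each other and well above every control library (2.84 ± 0.17, adjusted p = 3.3e-09). H3C6 (chr6:26224199-26227473, plus strand) had 10.96 to 14.87 CPM in KO xenografts against 2.57 to 3.28 CPM in control xenografts (2.22 ± 0.13). H4C14 and H4C15 are near-identical copies to which the xenograft files gave the same values, 1.46 to 2.87 CPM in KO xenografts against 0.440 to 0.745 CPM in control xenografts. H4C3 had 4.50, 2.74, 4.64, 2.93 and 1.93 CPM in KO xenografts and 3.31, 3.85, 3.04, 3.45 and 3.67 CPM in control xenografts. The KO libraries of H4C3 spread on both sides of the controls, and the test was not passed (adjusted p = 0.839, 95% interval of the log2 fold change −0.48 to 0.37).

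The calls were also counted by the annotated form of the gene. Over all genes tested, 30.4% rose and 28.7% fell in KO cultures, and 28% rose in KO xenografts. Of replication-dependent genes with a spliced or at least 1000-base annotated transcript, 10 of 11 tested rose in KO cultures and 17 of 17 in KO xenografts. Of those annotated only with short unspliced transcripts, 4 of 10 tested rose and 2 fell in KO cultures, and 7 of 13 rose in KO xenografts. With the stem-loop in an annotated transcript, 11 of 13 rose in cultures and 19 of 21 in xenografts. Without a match, 4 of 10 and 6 of 11 rose, and a missing match can reflect a model that ends before the site. Longer gene models hold more reads and pass the filter more easily, so these are counts over tested genes and the difference between the classes was not tested.

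Of the 22 genes tested in both knockout comparisons, 14 rose in both, where 30.4% of all genes rose in KO cultures and 28% in KO xenografts. The share of all genes that rose in both was not counted. A direct test of the difference between the knockout effects in xenografts and in cultures, in 1 fit of both systems, called 11 of 41 histone genes more positive in xenografts and 0 more negative. At an unadjusted p under 0.05, 16 passed, and DESeq2 called 12, all more positive. Over all 16023 genes, 12.6% were more positive and 14.4% more negative. The difference of log2 fold changes was 1.69 ± 0.40 for H3C10 (adjusted p = 0.00354), 1.67 ± 0.34 for H4C3 (adjusted p = 0.00103), 0.87 ± 0.31 for H2BC4 (adjusted p = 0.0449), 0.60 ± 0.22 for H2BC5 (adjusted p = 0.0439) and 0.48 ± 0.13 for H2BC12 (adjusted p = 0.00962). It was not passed by H1-2 (0.24, adjusted p = 0.144, 95% interval 0.01 to 0.47), H2AC6 (0.01, adjusted p = 0.996, 95% interval −0.77 to 0.80) or H2BC21 (0.74, adjusted p = 0.138).

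That H2AC18 was called in the same test (2.21, adjusted p = 0.0216) rests on the split of reads with its copy, since the sum of H2AC18 and H2AC19 differed by 0.47 (adjusted p = 0.0507). Calls in this comparison also depended on single libraries and on the scaling: without WT replicate 2, 3 genes were called in place of 11, and H3C10 (adjusted p = 0.111) and H2BC4 (adjusted p = 0.197) were not among them. Without WT replicate 1, the calls of H2BC5 (adjusted p = 0.229) and H2BC12 (adjusted p = 0.08) were lost. On log2(TPM + 0.5) the difference of H2BC12 was 0.22 (adjusted p = 0.192). Over 24 alternatives the call of H2BC4 was lost in 13 and that of H2BC5 in 12, among them total-count scaling (adjusted p = 0.0722 and 0.0806), log2(TPM + 0.1) and the omission of either of the first 2 KO cultures or of single KO or control xenografts. The log2 fold change of GATA6 itself was −1.76 in cultures and −1.06 in xenografts (difference 0.71, adjusted p = 0.018). That call was lost in 6 of 24 alternatives, among them total-count scaling (adjusted p = 0.0533), no filter (adjusted p = 0.0702) and log2(TPM + 0.5), where the difference was 0.38 (adjusted p = 0.213). It was also lost without WT replicate 3 (adjusted p = 0.0587) or KO culture replicate 2 (adjusted p = 0.0582).

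In the degron cells, few histone genes and few of all genes were called after 12 h of auxin. The median log2 fold change was 0.00 over the 29 tested histone genes and −0.01 over all genes. By family the medians ran from −0.32 for H3 to 0.04 for H2A. At 12 h, 1 of 29 histone genes rose and 0 fell, against 4.04% and 3.35% of all 14029 genes; 2 histone genes passed at an unadjusted p under 0.05, and DESeq2 also called 1. No histone gene was called at 12 h without the third 12 h library, with TPM values, or without the 4 libraries at 12 h and after washout that held more than 100 haemoglobin counts. H1-2 had 10.1, 9.39 and 8.63 CPM at 12 h against 11.6, 10.5 and 8.59 CPM in control cells, with overlapping libraries (log2 fold change −0.13, adjusted p = 0.601, 95% interval −0.36 to 0.11). H2BC12 overlapped too, with 6.47, 7.02 and 5.47 CPM at 12 h against 6.35, 7.70 and 6.75 CPM in control cells (−0.13, adjusted p = 0.649, 95% interval −0.39 to 0.14).

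Between washout and 12 h, 0 of 29 histone genes rose and 1 fell, while 9.27% of all genes rose and 8.15% fell, and no histone gene was called when any 1 of the 3 washout libraries, or the first 12 h library, was left out. H1-10 had 128, 141 and 134 CPM after 24 h of washing against 152, 159 and 137 CPM at 12 h, with overlap (−0.16 ± 0.07, adjusted p = 0.131). Between washout and control, 0 of 29 were called, against 5% of all genes tested. In that comparison 3 histone genes passed at an unadjusted p under 0.05 and DESeq2 called 0. The comparisons of degron groups share libraries, so their values are not independent.

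At 72 h of auxin, 3 of 29 histone genes rose and 8 fell relative to degron control, while 28.3% of all genes rose and 29.5% fell. The median log2 fold change was −0.30 over the 29 genes and 0.00 over all genes. H1-10 had 68.5, 74.6 and 74.8 CPM at 72 h against 130, 158 and 156 CPM in control cells, lower in every library (−1.03 ± 0.07, adjusted p = 5.13e-10). H2AC6 had 6.08, 5.17 and 5.11 CPM at 72 h against 3.94, 4.43 and 3.68 CPM in control cells (0.44 ± 0.15, adjusted p = 0.0131). That call was lost without the first 72 h library (adjusted p = 0.0741) or the third control library (adjusted p = 0.0562).

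H3C6 also rose at 72 h, with 1.57, 1.35 and 1.48 CPM at 72 h against 0.689, 0.731 and 0.892 CPM in control cells (0.93, adjusted p = 0.00987). The fallen genes besides H1-10, named after their values were seen, were H2AC20, H2AC25, H3C2, H4C3, H4C5 and the near-identical pair H3C14 and H3C15, which count as 1 measurement. H4C3 had 0.459, 0.578 and 0.519 CPM at 72 h against 2.41, 1.75 and 1.56 CPM in control cells (−1.87 ± 0.30, adjusted p = 9.26e-06). H3C2 had 0.0765 to 0.154 CPM at 72 h against 0.438 to 0.640 CPM in control cells (−2.37, adjusted p = 0.000524). The H3 sum was 4.82 ± 1.58 TPM at 72 h and 8.67 ± 1.10 TPM in control cells and the H4 sum 27.1 ± 5.6 TPM at 72 h and 41.1 ± 11.3 TPM in control cells, both without overlap. Without the second 72 h library, 7 genes were called in place of 11. With total-count scaling, which moved the median of all genes by 0.12, 4 rose and 6 fell, in place of 3 and 8.

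No H2B gene of 7 tested was called at 72 h by edgeR, and 2 passed at an unadjusted p under 0.05. H2BC12 had 6.39, 4.94 and 5.59 CPM at 72 h against 6.35, 7.70 and 6.75 CPM in control cells (−0.30, adjusted p = 0.0572, 95% interval −0.56 to −0.04), and was called lower without control replicate 1 (adjusted p = 0.0441) or without 72 h replicate 1 (adjusted p = 0.0269). H1-2 had 9.60, 9.99 and 11.1 CPM at 72 h against 11.6, 10.5 and 8.59 CPM in control cells, with overlapping libraries (−0.01, adjusted p = 0.972, 95% interval −0.23 to 0.22). H2BC21 had 1.42, 1.89 and 1.56 CPM at 72 h against 2.07, 1.56 and 1.34 CPM in control cells (95% interval of the log2 fold change −0.52 to 0.45). H2BC4 overlapped as well, with 1.95, 1.39 and 1.04 CPM at 72 h against 1.62, 1.02 and 1.67 CPM in control cells. H2BC5, with 4.67, 4.44 and 4.87 CPM at 72 h against 3.64, 3.70 and 3.79 CPM in control cells, did not overlap and missed the threshold (0.33, adjusted p = 0.0689); it passed with total-count scaling (adjusted p = 0.0141).

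The step from 12 h to 72 h gave 2 higher and 8 lower of 29, against 26.8% and 28.6% of all genes. H1-10 fell by 1.04 on the log2 scale (adjusted p = 6.96e-10) over this step. With total-count scaling 3 rose and 5 fell, and without the second 72 h library 6 genes were called.

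**Figure D3:**
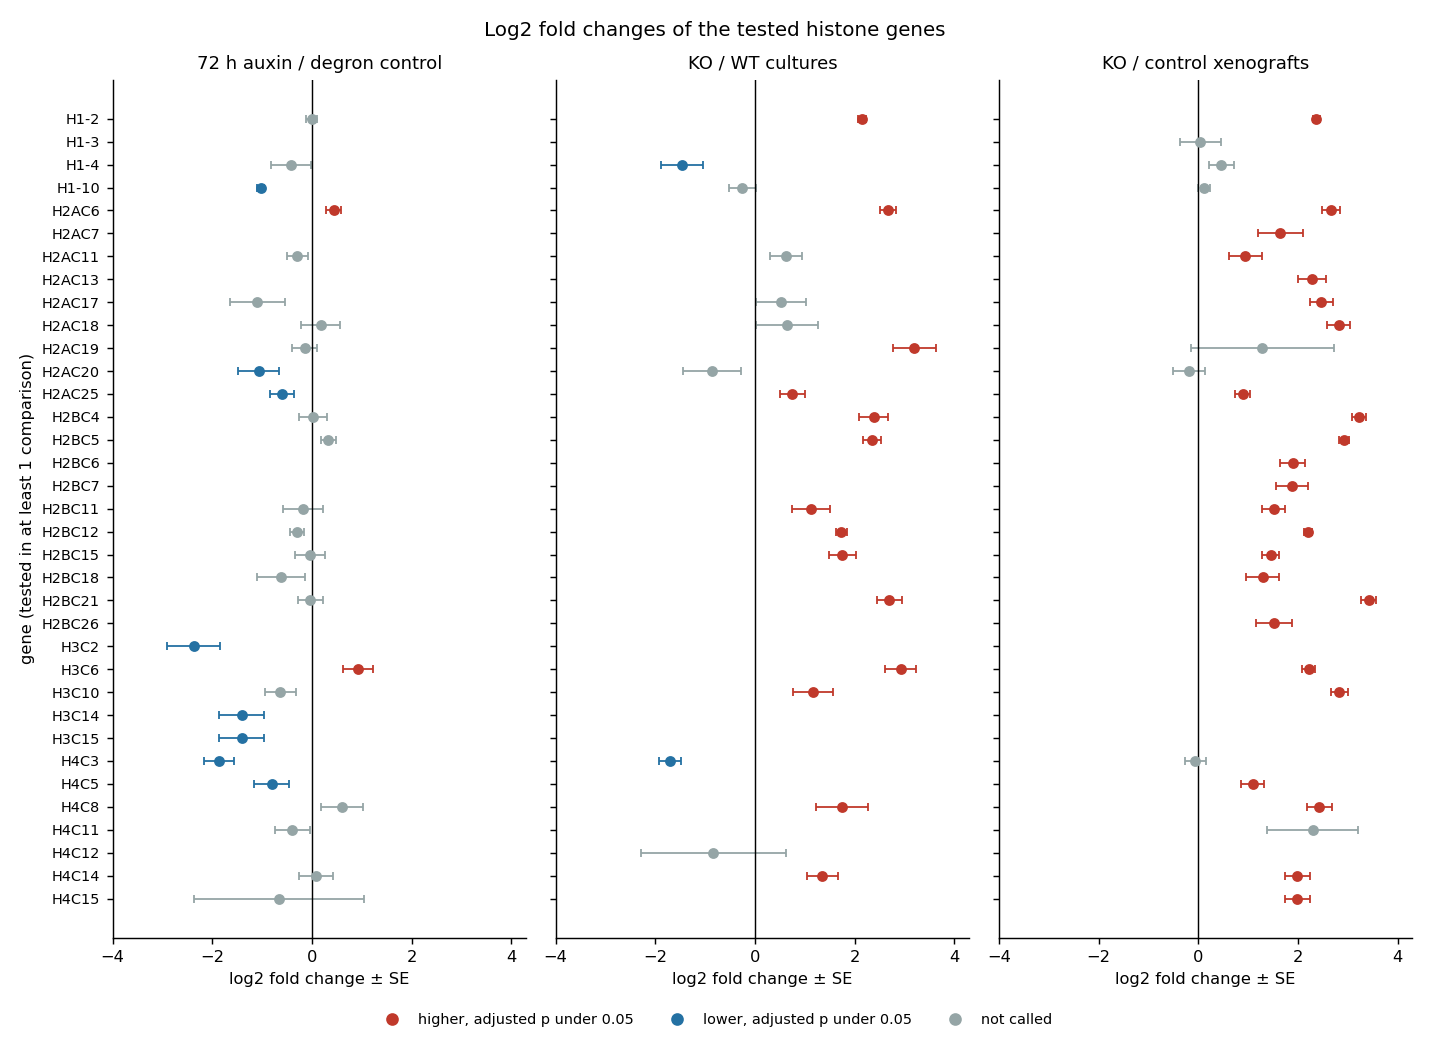
Log2 fold change ± SE (x axis) of histone genes tested in at least 1 of 3 comparisons (rows): 72 h auxin over degron control, KO over WT cultures and KO over control xenografts; red points are higher and blue points lower at adjusted p under 0.05, grey points are not called, and a missing point was not tested. The H2B rows lie to the right of 0 in both knockout panels, 6 of 6 and 10 of 10 in red, and are grey at 72 h of auxin.

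The effects of 72 h of auxin and of knockout in cultures were compared directly in a fit of both systems, which asks whether acute and stable loss of GATA6 differ. Of 31 histone genes tested, 15 had a more negative effect with auxin and 1 a more positive one, against 21.6% and 22.4% of all 14536 genes. The difference was −2.16 ± 0.14 for H1-2 (adjusted p = 5.06e-12), −2.23 ± 0.22 for H2AC6 (adjusted p = 1.16e-08), −2.03 ± 0.17 for H2BC12 (adjusted p = 8.5e-10), −2.01 ± 0.24 for H2BC5 (adjusted p = 1.91e-07), −2.73 ± 0.36 for H2BC21 (adjusted p = 1.05e-06) and −2.35 ± 0.43 for H2BC4 (adjusted p = 7.65e-05). H4C3 fell in both systems, with log2 fold changes of −1.87 with auxin and −1.71 in KO cultures, and the difference did not pass (adjusted p = 0.749, 95% interval −0.87 to 0.54). H4C14 was also called (−1.27, adjusted p = 0.0354), but its call was lost without any 1 of 8 libraries (adjusted p = 0.0703 to 0.128) and with TPM values (adjusted p = 0.296). The degron line and the knockout cultures have separate controls. Time without the protein, the tag, auxin itself and the culture cannot be told apart between them. The series holds no untagged cells given auxin, so within the degron groups auxin itself and degradation cannot be told apart either.

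Many H2A and H2B genes lie head to head and share the stretch between their starts. Of 11 such pairs, with 194 to 248 bases between the starts, both genes were tested in xenografts in 5, and both rose in 4. In cultures both genes were tested in 3 pairs and both rose in 1. Of all histone genes tested singly, 78.1% rose in KO xenografts and 65.2% in KO cultures, where 28% and 30.4% of all genes rose. Whether head-to-head genes rose together more often than other histone genes was not tested. In cultures both genes rose in a single pair. That pair is H2BC4 and H2AC6, whose starts are 246 bases apart and whose log2 fold changes were 2.38 and 2.67 in KO cultures and 3.24 and 2.66 in KO xenografts. In the pair of H2BC21 with H2AC20, 236 bases apart, H2BC21 rose by 2.69 and 3.42 while H2AC20 did not pass the test (−0.87 in KO cultures and −0.19 in KO xenografts).

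The promoter stretches of these pairs and of H1-2 are printed because their genes show the largest and the discordant differences. They are from RefSeq (GRCh38.p14), the 250 bases before the start, and the capitals mark motif matches on either strand. The motifs are the TATA box TATAAA, the CCAAT box, the octamer with the letters ATTTGCAT and, for H1-2, the H1 box with the letters AAACACA.
H2AC6 (chr6:26123922-26124171, plus strand, also the upstream stretch of H2BC4 on the other strand): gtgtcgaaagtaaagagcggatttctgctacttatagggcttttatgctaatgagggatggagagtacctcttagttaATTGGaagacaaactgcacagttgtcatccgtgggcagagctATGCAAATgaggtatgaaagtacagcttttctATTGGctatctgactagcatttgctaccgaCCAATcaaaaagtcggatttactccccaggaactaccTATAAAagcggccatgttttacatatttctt
H2BC21 (chr1:149886683-149886932, minus strand): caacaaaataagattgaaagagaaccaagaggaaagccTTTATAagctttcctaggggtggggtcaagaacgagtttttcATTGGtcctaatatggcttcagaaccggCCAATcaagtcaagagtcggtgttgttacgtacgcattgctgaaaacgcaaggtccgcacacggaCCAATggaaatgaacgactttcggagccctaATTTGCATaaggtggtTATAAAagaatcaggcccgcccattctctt
H1-2 (chr6:26056471-26056720, minus strand): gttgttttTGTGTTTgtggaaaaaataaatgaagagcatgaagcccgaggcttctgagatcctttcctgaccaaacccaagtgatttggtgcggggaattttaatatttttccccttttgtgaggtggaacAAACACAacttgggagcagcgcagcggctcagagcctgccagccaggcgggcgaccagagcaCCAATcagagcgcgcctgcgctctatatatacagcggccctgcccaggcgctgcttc
Over windows of 250 bases before to 50 after the start, on both strands, TATAAA was found in 63.9% of the 72 windows of 67 histone genes and 11.5% of all 35116 windows. CCAAT was found in 83.3% of histone windows and 34.6% of all, and the octamer in 37.5% of histone windows and 1.8% of all. The letters GATA preceded by A or T and followed by A or G were found in 26.4% of histone windows and 25.0% of all. Of histone genes with a window, the GATA letters were present in 2 of 14 that rose and 1 of 7 others tested in cultures, and in 6 of 24 that rose and 1 of 6 others tested in xenografts. The octamer was present in 11 of the 24 and 1 of the 6 in xenografts, and in 5 of the 14 and 3 of the 7 in cultures. These are letter matches, and none was tested for binding.

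Genes that act beside the clustered histones were counted in the same comparisons. Replacement and variant histones, most of which are polyadenylated, had a median log2 fold change of −0.11 over 8 tested genes in KO cultures. Of the 8, 0 were higher and 3 lower, against 30.4% and 28.7% of all genes. Among them were H2AZ1, the transcription-start variant H2A.Z (−0.63), and H3-3A, an H3.3 gene (−0.15). In KO xenografts 2 were higher and 3 lower, against 28% and 28.1% of all genes, with H3-3A at 0.36 and H2AZ1 at −0.50. At 72 h of auxin 7 of the 8 fell, against 29.5% of all genes, led by H2AX, the damage-signalling variant (−1.08).

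Of 21 tested factors of histone mRNA 3' end processing and decay, 2 rose and 11 fell in KO cultures and 2 rose and 9 fell in KO xenografts, with medians of −0.15 and −0.16, where 28.7% of all genes fell in KO cultures and 28.1% in KO xenografts. SLBP, which binds the stem-loop, fell by 0.54 in KO cultures, by 0.61 in KO xenografts and by 0.40 at 72 h of auxin on the log2 scale. ERI1, an exonuclease that acts on the stem-loop, fell by 0.89 in KO xenografts and by 0.46 at 72 h. Nuclear exosome and decay factors gave 0 higher and 12 lower of 16 in KO cultures, and 0 higher and 10 lower in KO xenografts.

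Histone chaperones, which escort new histones to DNA, gave 2 higher and 20 lower of 23 in KO cultures (median −0.41). In KO xenografts 2 were higher and 16 lower (median −0.44). For this and the next lists, 30.4% of all genes were higher and 28.7% lower in KO cultures. In KO xenografts the shares were 28% and 28.1%. The chaperone NASP fell by 0.88 and SSRP1, a subunit of FACT, by 0.89 in KO cultures, and HIRA, an H3.3 chaperone, fell by 0.62 in KO xenografts. Genes of G1/S and DNA replication gave 0 higher and 22 lower of 25 in KO cultures (median −0.62) and 0 higher and 24 lower in KO xenografts (median −0.78). Those of G2/M and mitosis gave 3 higher and 17 lower of 25 in KO cultures and 0 higher and 24 lower in KO xenografts. CDKN1A, the p21 inhibitor of cyclin-dependent kinases, rose by 1.31 in KO cultures, 2.37 in KO xenografts and 1.15 at 72 h. The histone genes called higher in KO cells stood beside replication genes called lower in the same libraries. At 72 h of auxin, 2 of the 25 G1/S genes rose and 17 fell, and of the 29 histone genes 3 rose and 8 fell. The fallen histone genes were 27.6% of those tested, near the 29.5% of all genes that fell.

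**Figure D4:**
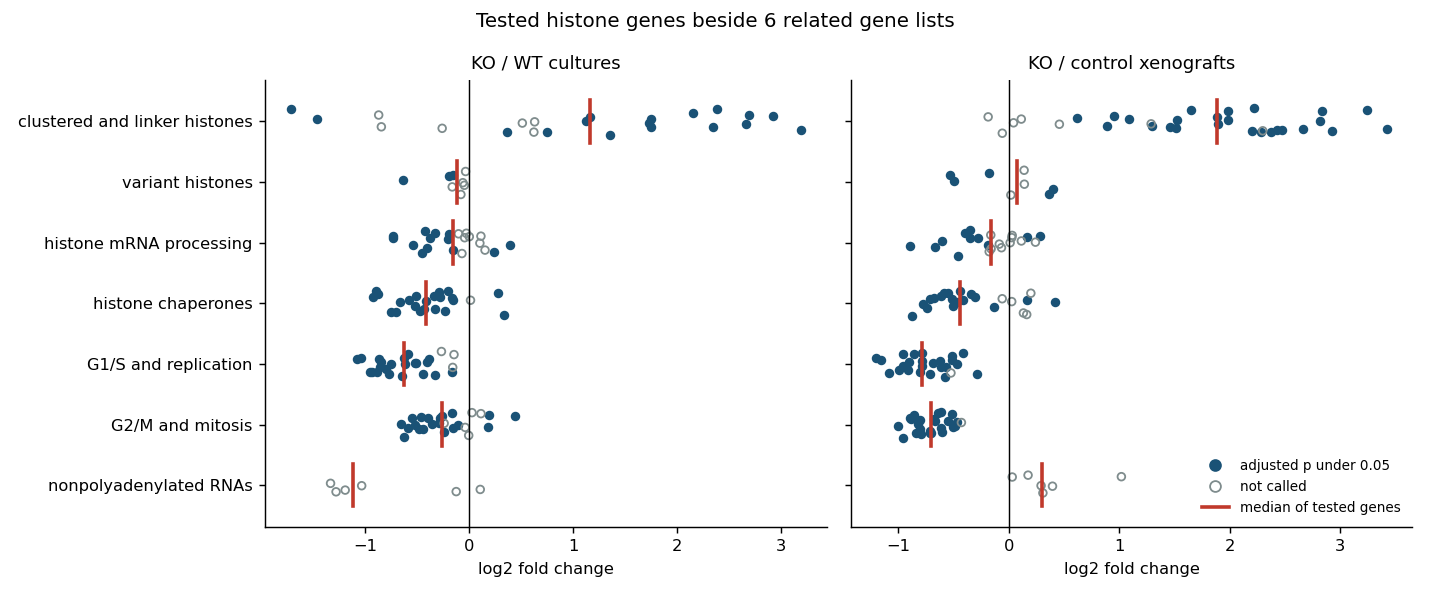
Log2 fold changes (x axis) of the tested clustered and linker histone genes and of the tested genes of 6 related lists (rows), in KO over WT cultures (left) and KO over control xenografts (right); points are genes, filled at adjusted p under 0.05, and red bars are medians. The histone medians of 1.17 and 1.89 lie to the right of 0, and the G1/S and replication medians of −0.62 and −0.78 to the left.

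RNAs without a poly(A) tail give a measure of how much nonpolyadenylated RNA each library holds, for which 22 small nuclear, nucleolar and other such RNAs were summed. The sum was 39.4 to 69.7 CPM in KO cultures and 34.3 to 108 CPM in WT cultures, and 357 to 736 CPM in KO xenografts and 437 to 565 CPM in control xenografts, overlapping in both pairs. At 72 h of auxin it was 159 to 192 CPM, against 50.5 to 58.8 CPM in degron control, without overlap, with RN7SL1 at 1.81 and RN7SL2 at 2.15 on the log2 scale. The part of this RNA in the histone values was not tested.

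Summed markers of other cell types were higher in KO than in control xenografts, on few reads for leukocytes. Only 2 of the 10 leukocyte markers and 4 of the 11 fibroblast and endothelial markers passed the filter in xenografts. The leukocyte sum held 49 to 240 counts per KO xenograft library and 27 to 50 per control xenograft library. The summed leukocyte markers were 3.24 to 14.05 CPM in KO xenografts and 1.12 to 2.30 CPM in control xenografts, with 3 of 10 at 0 counts in KO xenografts (FCGR3B and NKG7 among them) and 7 of 10 in control xenografts, which included PTPRC. The fibroblast and endothelial markers summed to 18.5 to 32.5 CPM in KO xenografts and 8.22 to 15.5 CPM in control xenografts, with 1 of 11 at 0 counts in KO and 4 of 11 in control xenografts. The fibroblast list includes vimentin (VIM), which also rose in KO cultures (1.86), and the list summed to 8.47 to 9.39 CPM there against 3.52 to 5.55 CPM in WT cultures. The colorectal epithelial markers summed to 12898 to 18204 CPM in KO xenografts and 8724 to 10408 CPM in control xenografts, and their part, like that of the other markers, in the histone values was not tested.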

How the data were processed

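Per the labels, RNA was isolated on columns and made into directional poly-A selected libraries. The authors deposited 1 file of expected counts and 1 file of TPM per gene and library. Per the submitters' processing notes, Trim Galore 0.6.10, STAR, RSEM and hg38 were used. Which STAR and RSEM versions, which gene annotation and which strand option were chosen, and what was done with mouse reads, are not given in the sources used here. The organism label of the xenograft libraries is mouse, although the identifiers in those files are human. Reads of near-identical copies, and of histone genes that overlap a gene on the opposite strand, are therefore uncertain.

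Expected counts as deposited were rounded and fitted with edgeR 4.0.16 (R 4.3.3; filterByExpr, TMM, robust quasi-likelihood), with Benjamini-Hochberg adjustment over all genes tested and a threshold of 0.05. The 12 degron libraries shared 1 fit, cultures and xenografts had 1 fit each, and each pair of effects was compared by an interaction contrast. Identifiers were joined without their version. Symbols came from a reference table, coordinates from GENCODE v29 and promoters from RefSeq.

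Replicates were checked for duplicates by a chi-square of their counts and none was found. The method was tested on simulated data.

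The histone genes and the lists were chosen with earlier results of these data known. Genes named with values by rule were the 10 highest and 10 lowest per comparison. They came from those with adjusted p under 0.05, mean log2 CPM of at least 1 and no overlap between groups. The last condition could not apply to the interaction contrasts. A fixed set of histone genes and GATA6 was added, though not every one is given for every comparison. Per list, up to 4 genes with the smallest p were named. H1-4, H3C2, H2AC20, H2AC25, H3C14, H3C15, H4C5, H4C15, VIM, NASP in cultures and CDKN1A were given outside or across these rules after their values were seen. Also outside them were H3C6 in cultures and at 72 h, and H4C14 and H2AC19 in xenografts. The same holds for H4C3 in xenografts, at 72 h and in the comparison of auxin with knockout. In the counts and sums, 1 histone gene and 1 leukocyte marker are included that are not reported here.

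Alternatives were limma 3.58.1 on log2(TPM + 0.5) and log2(TPM + 0.1), DESeq2 1.42.0, other scalings, no filter, a replicate block, leaving out libraries and, chosen after seeing the data, summing near-identical genes.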

Additional observations from a re-analysis of the deposited data

Results flagged for a closer look

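Among 38 sets of 5 xenograft values, 4 held a library far from the others of its group by Dixon's criterion, which chance meets in about 1 of 20 sets. All 4 were control xenografts. H2BC11 stood at 2.48 CPM in control xenograft replicate 1 and H2BC21 at 5.56 CPM in control xenograft replicate 4. Among the control xenografts, replicate 1 had the highest H3 sum, 25.02 TPM, and replicate 5 the highest H2A sum, 124.03 TPM.

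The effect of 72 h of auxin differed from that of knockout in cultures by a direct test of the difference. On the log2 scale, auxin minus knockout, it was -2.16 for H1-2, -2.23 for H2AC6, -3.34 for H2AC19, -2.35 for H2BC4, -2.01 for H2BC5, -2.03 for H2BC12, -2.73 for H2BC21, -1.27 for H4C14 and 1.31 for GATA6.

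The knockout effect differed between xenografts and cultures by the same kind of test. On the log2 scale, xenografts minus cultures, it was 2.21 for H2AC18, 0.87 for H2BC4, 0.60 for H2BC5, 0.48 for H2BC12, 1.69 for H3C10, 1.67 for H4C3 and 0.71 for GATA6. The calls of H2BC4, H2BC5 and GATA6 were lost in 13, 12 and 6 of 24 alternatives. The values of H2AC18 and H2AC19 depend on how reads were divided between these copies.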

How the results depend on the processing

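Of 1644 single-gene values under alternatives, 58 had the opposite sign to the reported value, none of them called in either setting; 1562 stayed on the same side of the threshold, 63 lost their call and 19 gained one. The numbers of histone genes called were 16 to 21 in KO cultures, 24 to 28 in KO xenografts, 8 to 12 at 72 h and 13 to 16 in the comparison of 72 h with knockout over the alternatives that left out no replicate by number. With no filter 6 genes in place of 2 were lower in KO cultures and 2 in place of 0 in KO xenografts. At 12 h the call of 1 gene became 0 with TPM and either pseudocount and without the haemoglobin libraries. For washout against 12 h the 1 call became 2 with no filter and 0 with TPM and either pseudocount, without the haemoglobin libraries, and with only the 2 groups compared. For 72 h against 12 h the 10 calls became 5 without the haemoglobin libraries and 6 with only the 2 groups compared.

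Leaving out 1 library at a time gave 0 to 1 calls at 12 h (0 without the third 12 h library), 0 to 1 for washout against 12 h (0 without 12 h replicate 1 or any washout library), 0 to 1 for washout against control (1, H1-10, without control replicate 1), 7 to 11 at 72 h (7 without 72 h replicate 2), 6 to 9 for 72 h against 12 h (6 without 72 h replicate 2), 14 to 17 in KO cultures, 24 to 26 in KO xenografts, 12 to 17 for auxin against knockout and 3 to 12 for xenografts against cultures (3 without WT replicate 2).

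Replicate numbers did not pair the libraries: deviations of same-numbered libraries correlated at -0.204 to 0.104. With a replicate block the calls were 1 at 12 h, 10 at 72 h, 8 for 72 h against 12 h, 1 for washout against 12 h, 0 for washout against control, 17 in KO cultures, 25 in KO xenografts, 14 for auxin against knockout and 9 for xenografts against cultures.

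Of the 74 genes, 38 passed the filter in no set, so nothing is said of their changes. Genes near 1 CPM rest on few reads per library.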
